A study of Homo sapiens with 37 samples.

Results

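The 10 genes described here are human long non-coding RNAs whose introns carry small nucleolar RNAs (snoRNAs), and they were chosen by name from each deposited count table, 10 of 60483 gene IDs in both. They are GAS5 (ENSG00000234741), SNHG1 (ENSG00000255717), SNHG5 (ENSG00000203875), SNHG6 (ENSG00000245910), SNHG8 (ENSG00000269893), SNHG12 (ENSG00000197989), SNHG15 (ENSG00000232956), SNHG16 (ENSG00000163597), ZFAS1 (ENSG00000177410) and EPB41L4A-AS1 (ENSG00000224032). In the RefSeq annotation of GRCh38.p14 all 10 are long non-coding RNA genes, and their spans hold 28 C/D box and 7 H/ACA box snoRNA genes. GAS5 spans 10 C/D box snoRNAs and 1 of the H/ACA class and SNHG1 spans 8 of the C/D class, whereas SNHG8, SNHG15 and EPB41L4A-AS1 each span 1 H/ACA box snoRNA and SNHG12 spans 3 of the H/ACA class and 1 of the C/D class.

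RNA was measured in HEK293T cells, an established human embryonic kidney line, by proximity labelling with APEX, a peroxidase that tags nearby RNA with biotin-phenol once hydrogen peroxide is added. Cells received 500 µM biotin-phenol for 30 min and 1 mM H2O2 for 1 min, and biotinylated RNA was collected on streptavidin beads (pulldown) beside an input library. The naive table holds 20 libraries from unstressed cells, 2 inputs and 2 pulldowns for each of 5 constructs, APEX-eIF4A, APEX-eIF4E, APEX-CBX1, APEX-GFP and C1-APEX. The stress table holds 17 libraries, and every one of them is from APEX-eIF4A cells: unstressed at T0 (2 inputs, 2 pulldowns), heat shock at T4 (1 and 1) and T20 (2 and 2), hippuristanol (2 and 2) and DMSO (1 input, 2 pulldowns). CBX1 is a heterochromatin protein, eIF4E binds the mRNA cap, eIF4A is the RNA helicase of translation initiation, and hippuristanol inhibits eIF4A. The sources used here do not give the unit of T, how the fusion proteins were expressed or whether the cells of a construct are 1 clone. All groups share the HEK293T background and an APEX fusion, and a library from cells without APEX was not analysed here. In bulk RNA, fewer cells carrying an RNA and less of it per cell cannot be told apart.

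SnoRNA host genes keep their working product in the introns: C/D box snoRNAs guide ribose methylation of ribosomal RNA and H/ACA box snoRNAs guide pseudouridylation. Many of these genes start transcription at a terminal oligopyrimidine (TOP) promoter, the type used by ribosomal protein genes, where the first base is a C followed by a run of pyrimidines. The spliced exons can reach the cytoplasm, and for GAS5 and several others they are known to be bound by ribosomes and degraded by nonsense-mediated decay, a pathway that needs translation.

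The start of the transcript defines the TOP class, so 60 bases around the annotated start are shown for the 3 genes with such a run at the start and for 3 without. The letters are RefSeq sequences of GRCh38.p14, written along the gene's own strand with 20 bases before the start and 40 from it, so that the start is base 21. Capitals mark every C that is followed by at least 4 pyrimidines (C or T), searched on the gene's strand only, with overlapping matches joined into 1 run. The SNHG5 window is chr6:85678694-85678753 on the minus strand, SNHG12 is chr1:28581834-28581893 on the minus strand, ZFAS1 is chr20:49278622-49278681 on the plus strand, GAS5 is chr1:173869006-173869065 on the minus strand, SNHG16 is chr17:76557744-76557803 on the plus strand and SNHG8 is chr4:118278742-118278801 on the plus strand.
SNHG5: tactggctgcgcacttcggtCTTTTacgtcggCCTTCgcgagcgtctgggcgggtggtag
SNHG12: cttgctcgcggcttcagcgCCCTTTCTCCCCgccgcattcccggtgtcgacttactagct
ZFAS1: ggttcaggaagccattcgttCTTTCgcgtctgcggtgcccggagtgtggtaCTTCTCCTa
GAS5: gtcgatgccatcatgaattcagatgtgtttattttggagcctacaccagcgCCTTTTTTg
SNHG16: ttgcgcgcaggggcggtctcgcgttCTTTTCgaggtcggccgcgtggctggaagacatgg
SNHG8: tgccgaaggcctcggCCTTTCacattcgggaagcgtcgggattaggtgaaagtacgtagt

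The promoter table held 8 of the 10 genes, all but SNHG6 and SNHG15. A run at the annotated start was present in 3 of these 8, against 4.07% of 35116 RefSeq promoters read the same way. A run anywhere in the 60 bases was present in 8 of 8, against 58.6% of those promoters. In SNHG16 the run begins at base 6 of the transcript, in SNHG8 it begins 5 bases before the start, and in GAS5 it begins at base 32. SNHG1 and EPB41L4A-AS1 have their only run 19 bases before the start and at base 31. For SNHG12 and ZFAS1 the table's start lies inside the annotated gene span, so another annotated start lies upstream. These matches describe letters at an annotated start and not measured start sites.

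The libraries held 1419968 to 2629957 counts in naive inputs, 1718517 to 3276410 in naive pulldowns, 4540426 to 7782943 in stress inputs and 707356 to 1221213 in stress pulldowns. The 10 genes together took 0.01356% to 0.01982% of counts in naive inputs, 0.01188% to 0.03264% in naive pulldowns, 0.07261% to 0.1487% in stress inputs and 0.03605% to 0.08075% in stress pulldowns. Counts per gene in naive inputs therefore ran from 2 for SNHG6 to 97 for GAS5, and counting error alone is large for SNHG6, SNHG8, SNHG12, ZFAS1 and EPB41L4A-AS1. It is also large for SNHG15 in APEX-eIF4A inputs, at 7 and 18 counts. Replicates correlated on log2 CPM at 0.921 to 0.954 in naive inputs and 0.943 to 0.966 in stress inputs, but only at 0.613 to 0.730 in stress pulldowns and at 0.761 in C1-APEX pulldowns. No label states that the 2 replicates of a group came from different cultures, so a p-value reflects only how far these libraries scatter, and that scatter may be technical. By chi-square per ID, replicate counts varied by 1.31 to 1.89 times the counting variance in naive inputs. In stress inputs the factor was 12.4 to 77.3. Every gene called in the main fits was called in naive inputs, against that small scatter. GAS5, SNHG1, SNHG6, SNHG12 and EPB41L4A-AS1 overlap another annotated gene, and the strand setting of the counting is not given, so their counts may hold reads of the partner.

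Total RNA of the 5 constructs differed in 4 of these genes, SNHG5, GAS5, SNHG15 and SNHG16, and the levels were highest in APEX-eIF4E inputs for 3 of the 4 on both libraries. Levels below are CPM (counts scaled to a common library total, with TMM factors over the 10 naive inputs), and an ID is called at a Benjamini-Hochberg adjusted p under 0.05 in edgeR's quasi-likelihood F test over all IDs tested. SNHG5, host of SNORD50A and SNORD50B, stood at 13.7 and 21.5 CPM in APEX-GFP inputs, 19.9 and 24.2 in APEX-CBX1, 24.1 and 25.2 in C1-APEX, 36.2 and 31.9 in APEX-eIF4A and 31.9 and 47.5 in APEX-eIF4E. Both translation factor constructs lay above all 6 other libraries, an order seen afterwards and not counted over all IDs. Across the 5 constructs SNHG5 spanned 1.20 on the log2 scale between the highest and lowest group (edgeR adjusted p = 0.000466).

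GAS5, named for its rise in growth-arrested cells, stood at 44.9 and 54.8 CPM in APEX-eIF4E inputs against 27.1 to 37.4 in the 8 other inputs. Its groups spanned 0.82 on the log2 scale (edgeR adjusted p = 0.00458). SNHG15, host of SNORA9, stood at 16.7 and 22.6 CPM in APEX-eIF4E inputs and was lowest in APEX-eIF4A inputs, at 5.89 and 7.75 CPM. Its other 6 inputs lay between 9.94 and 13.4 CPM, and the APEX-eIF4A values came from only 7 and 18 counts. The span was 1.48 on the log2 scale (edgeR adjusted p = 0.0137). SNHG16, host of 3 SNORD1 snoRNAs, stood at 46.4 and 50.3 CPM in APEX-eIF4E inputs and at 27.3 to 41.2 in the 8 others, with a span of 0.65 (edgeR adjusted p = 0.0411).

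These 4 calls were among 9 genes tested, since SNHG6 did not pass the filter on low counts, and 20.1% of all 10019 IDs were called in the same test. The median span of the 9 was 1.06 on the log2 scale, against 0.73 over all IDs. By a rule chosen after the values were seen, both APEX-eIF4E inputs lay above all 8 other naive inputs for GAS5, SNHG1, SNHG15 and SNHG16, 4 of 9 against 6.92% of all IDs. The 4 calls fell to 1 (SNHG5) without the second APEX-eIF4E input, and to 0 in a fit over all 20 naive libraries. The fit over all 20 naive libraries called 3.64% of all IDs. Without the second APEX-eIF4E input the share of all IDs called fell as well. DESeq2 called 1 of the 4 (SNHG5), beside 750 IDs. That is 1.24% of all 60483 IDs without a filter, those with no reads included, so it cannot be set beside the edgeR shares. With library size in place of TMM 2 were called (GAS5 and SNHG15), beside 33.0% of all IDs. SNHG16 also lost its call without the second APEX-CBX1 input, either APEX-eIF4A input, the first APEX-eIF4E input or the second APEX-GFP input, with spans of 0.60 to 0.69. Adjusted p over 15 alternatives ran from 9.8e-05 to 0.0928 for SNHG5, 0.00222 to 0.28 for GAS5, 0.0101 to 0.211 for SNHG15 and 0.033 to 0.668 for SNHG16.

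**Figure D1:**
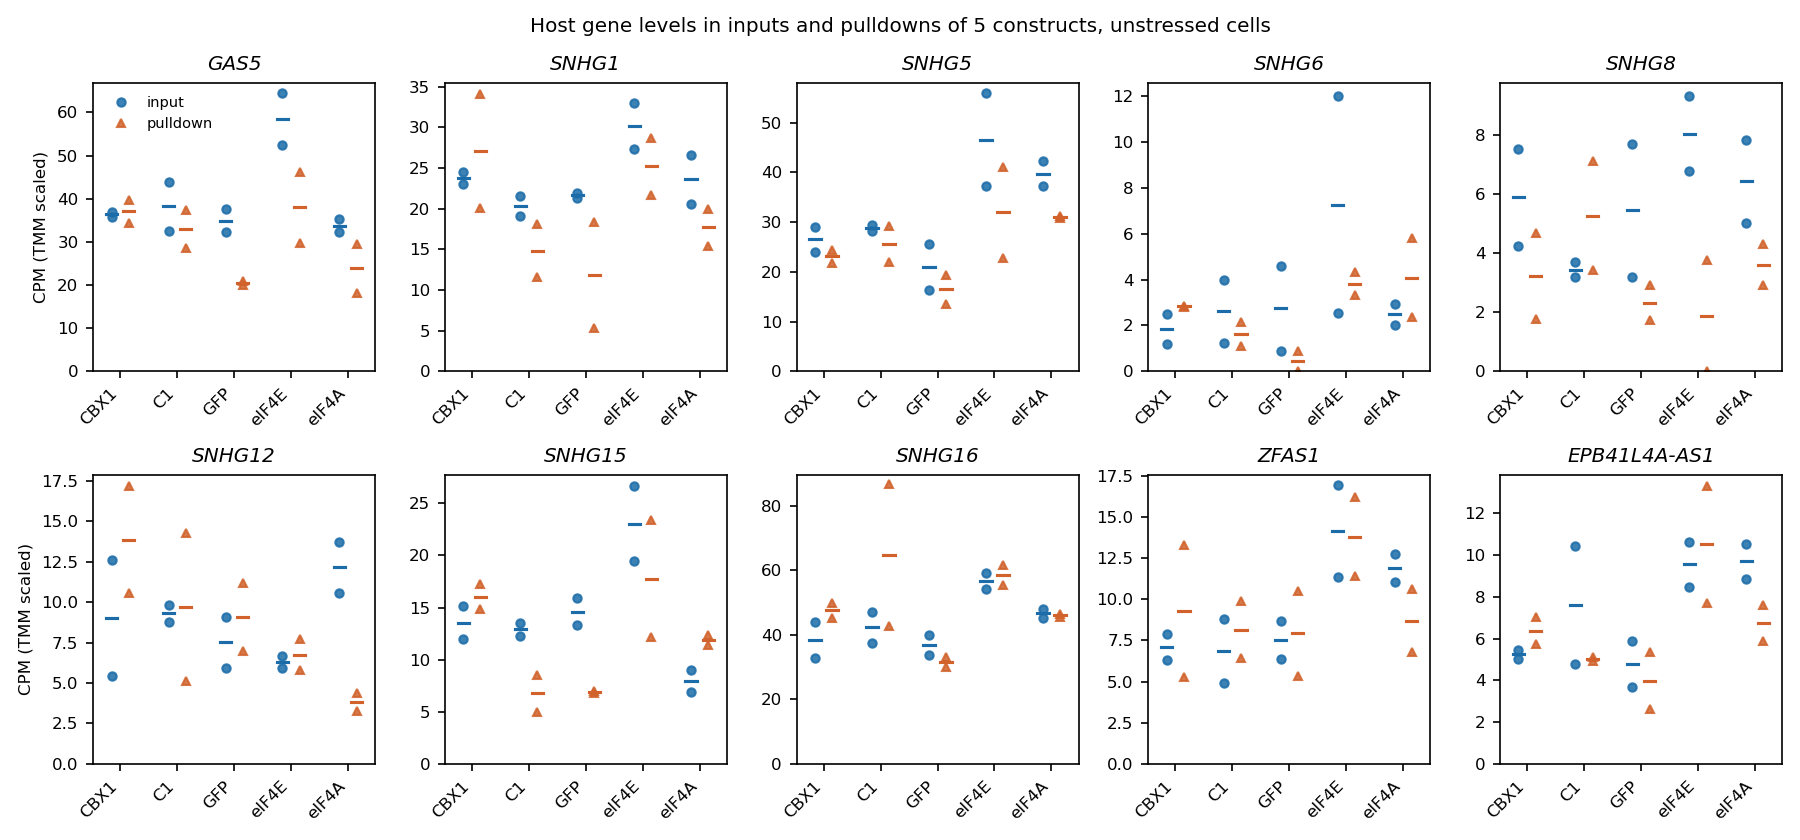
CPM (y axis, TMM scaled over all 20 naive libraries) of each gene in inputs (circles) and pulldowns (triangles) of the 5 constructs (x axis); each point is 1 library and bars are means of 2. The APEX-eIF4E inputs of GAS5 lie above the 8 other inputs, and pulldown points scatter around or below the inputs in most panels.

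The comparison with APEX-GFP inputs was added after the data were seen. APEX-eIF4E inputs were higher in 3 of 9 genes tested and APEX-eIF4A inputs in 1. Of all IDs, 6.5% and 3.35% were called higher, and 12.6% and 5.83% in either direction. SNHG5 was 2.29-fold higher in APEX-eIF4E inputs (log2 1.20 ± 0.23 SE, edgeR adjusted p = 0.000146) and 1.90-fold higher in APEX-eIF4A inputs (0.92 ± 0.23 SE, adjusted p = 0.00766). In APEX-eIF4E inputs GAS5 was 1.72-fold higher (0.78 ± 0.18 SE, edgeR adjusted p = 0.00232) and SNHG16 was 1.56-fold higher (0.65 ± 0.18 SE, adjusted p = 0.0127). SNHG12 was the only gene of the 9 with a negative APEX-eIF4E value (-0.22 ± 0.45 SE). The median of the 9 was 0.70 in APEX-eIF4E and 0.36 in APEX-eIF4A, against 0.00 and -0.01 over all IDs.

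The APEX-eIF4E count was 0 without the second APEX-eIF4E input, SNHG16 lost its call without the second APEX-GFP input (log2 0.53), and DESeq2 called GAS5 and SNHG5. With library size in place of TMM it was 1 (SNHG5), beside 24.8% of all IDs. The median of all IDs moved by -0.38 in that setting, and the direction of each of the 3 was kept. For SNHG5 in APEX-eIF4A the call was lost without either APEX-eIF4A input (log2 0.84 and 1.04) or without the first APEX-GFP input (0.63), and its adjusted p ran from 0.00377 to 0.236 over 9 alternatives. With library size SNHG15 was called lower there in its place. The shares of all IDs beside this call and beside the DESeq2 calls are not given here.

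In APEX-CBX1 inputs against APEX-GFP inputs 0 of 9 were called by edgeR, 0 by DESeq2 and 0 at an unadjusted p under 0.05, while 1.1% of all IDs were called and 11.1% passed the unadjusted threshold. The 2 smallest p-values were those of SNHG5, whose 4 values are given above (0.33 ± 0.24 SE, edgeR adjusted p = 0.68), and SNHG12. SNHG12 stood at 10.5 and 4.54 CPM in APEX-CBX1 inputs and 7.63 and 4.99 in APEX-GFP inputs, which overlap (0.24 ± 0.40 SE, edgeR adjusted p = 0.899). In C1-APEX inputs the edgeR, DESeq2 and unadjusted counts were also 0, with 4.68% of all IDs called and 18.1% past the unadjusted threshold. SNHG5 again came first (0.48 ± 0.25 SE, edgeR adjusted p = 0.292), followed by EPB41L4A-AS1, host of SNORA13. EPB41L4A-AS1 stood at 8.91 and 4.08 CPM in C1-APEX inputs and 4.96 and 3.07 in APEX-GFP inputs, which overlap (0.74 ± 0.46 SE, edgeR adjusted p = 0.404).

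**Figure D2:**
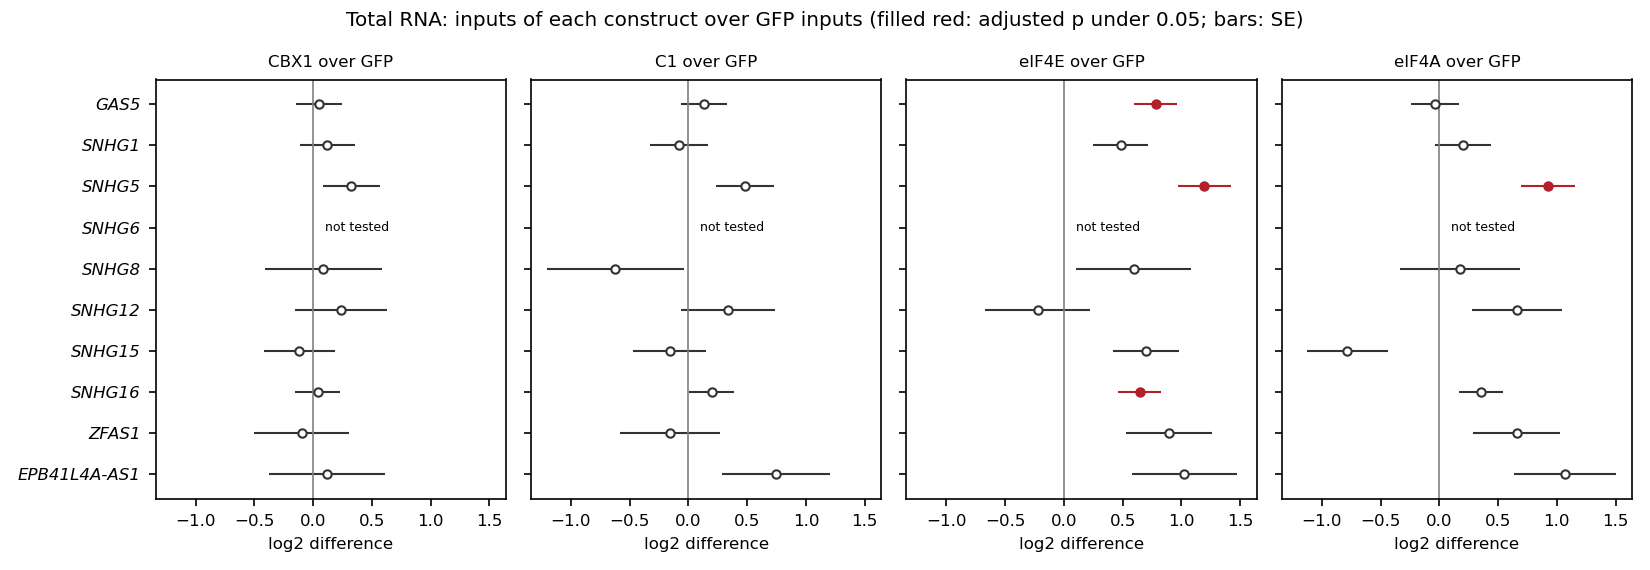
Log2 difference (x axis) between inputs of each construct and APEX-GFP inputs for the genes (y axis), with SE bars; filled red points passed adjusted p under 0.05 in edgeR. SNHG5, GAS5 and SNHG16 are filled for APEX-eIF4E at 1.20, 0.78 and 0.65, and SNHG5 for APEX-eIF4A at 0.92; SNHG6 was not tested.

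The pulldown held these RNAs at levels that edgeR did not tell apart from the input for any of the 10 genes in any construct. The question is whether an RNA lies near the tagged protein, and all 10 passed the filter in this fit of 20 libraries and 12427 IDs. The share of all IDs called was 2.18% in APEX-eIF4A, 2.51% in APEX-eIF4E, 3.91% in APEX-CBX1, 4.04% in APEX-GFP and 6.45% in C1-APEX. DESeq2 likewise called 0 of 10 in each, and the counts at an unadjusted p under 0.05 in edgeR were 1, 2, 0, 4 and 2 in that order, beside 11.8%, 12.5%, 16.7%, 16.2% and 22.3% of all IDs.

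Estimates of pulldown over input were mostly above 0 in APEX-CBX1, where 8 of 10 were positive with a median of 0.25. They were mostly below 0 in the other 4, where 2 (APEX-eIF4A), 3 (APEX-eIF4E), 2 (APEX-GFP) and 4 (C1-APEX) of 10 were positive and the medians were -0.44, -0.31, -0.56 and -0.18, while the medians of all IDs lay between 0.00 and 0.02. With library size the medians of the genes were 0.56 in APEX-eIF4E and 0.36 in APEX-eIF4A, turning positive, but the medians of all IDs were then 0.89 and 0.82. The median of the 3 H/ACA box hosts (SNHG8, SNHG15, EPB41L4A-AS1) and that of the 6 grouped as C/D box hosts were furthest apart in APEX-GFP, at -1.07 and -0.56, and close together in APEX-CBX1, at 0.23 and 0.26.

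GAS5 in APEX-GFP had one of the 2 smallest unadjusted p-values of that construct, at 32.2 and 37.6 CPM in inputs and 20.9 and 20.1 in pulldowns on the scale of all 20 naive libraries. The difference was -0.77 ± 0.27 SE on the log2 scale and was not called (edgeR adjusted p = 0.132). SNHG15 in APEX-GFP stood at 15.9 and 13.3 CPM in inputs and 6.81 and 6.99 in pulldowns, a difference of -1.07 ± 0.39 SE that was not called either (edgeR adjusted p = 0.146). In both genes the pulldowns lay below the inputs without overlap, as they did in 6 of the 10 genes and in 25.5% of all IDs. Without the second APEX-GFP pulldown, SNHG1 was called lower, 1 of 10, beside 1.55% of all IDs.

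In APEX-eIF4A the smallest p-value was that of SNHG12, host of SNORD99 and 3 H/ACA box snoRNAs. It stood at 13.7 and 10.6 CPM in inputs and at 3.29 and 4.41 in pulldowns, from 13 to 21 counts in each library. The difference of -1.62 ± 0.52 SE missed the threshold (edgeR adjusted p = 0.12), and SNHG12 was called lower when only the 4 APEX-eIF4A libraries were fitted, beside 6.58% of all IDs. The next smallest was GAS5, at 35.4 and 32.2 CPM in inputs and 29.6 and 18.2 in pulldowns (-0.48 ± 0.27 SE, edgeR adjusted p = 0.541). Both APEX-eIF4A pulldowns lay below both inputs for 7 of the 10 genes, SNHG12 and GAS5 among them, and for 22.8% of all IDs. With library size SNHG15 and SNHG16 were called higher in this construct, 2 of 10, beside 31.7% of all IDs.

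In APEX-eIF4E, SNHG8, host of SNORA24, stood at 6.78 and 9.32 CPM in inputs and at 0 and 3.76 in pulldowns, from 8, 14, 0 and 13 counts. Its difference of -1.98 ± 0.79 SE was not called (edgeR adjusted p = 0.257), and it was called without the second pulldown, beside 2.87% of all IDs. GAS5 stood at 52.5 and 64.6 CPM in inputs and 29.8 and 46.3 in pulldowns (-0.62 ± 0.25 SE, edgeR adjusted p = 0.262). The pulldowns lay below the inputs without overlap in these 2 of the 10 genes, and in 21.6% of all IDs. With library size SNHG16 was called higher, 1 of 10, beside 36.4% of all IDs.

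In C1-APEX, SNHG16 stood at 37.5 and 47.0 CPM in inputs and at 86.7 and 42.8 in pulldowns, so that 1 pulldown lay far above the other 3 libraries (0.61 ± 0.25 SE, edgeR adjusted p = 0.14). It was called without the second C1-APEX pulldown, that is with the high library alone, when 23.2% of all IDs were called. SNHG15 stood at 12.3 and 13.6 CPM in inputs and 4.94 and 8.57 in pulldowns (-0.90 ± 0.42 SE, edgeR adjusted p = 0.207). Its pulldowns lay below its inputs, as for SNHG1, 2 of 10 genes against 23.4% of all IDs. In APEX-CBX1 the 2 smallest p-values were those of SNHG12, at 12.6 and 5.46 CPM in inputs and 17.2 and 10.5 in pulldowns (0.64 ± 0.47 SE, edgeR adjusted p = 0.543), and SNHG16, at 44.0 and 32.8 in inputs and 45.3 and 49.9 in pulldowns (0.31 ± 0.24 SE, adjusted p = 0.58). The fractions overlapped for SNHG12, and both pulldowns lay above both inputs for SNHG16, one of 3 such genes of the 10, against 26.5% of all IDs.

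**Figure D3:**
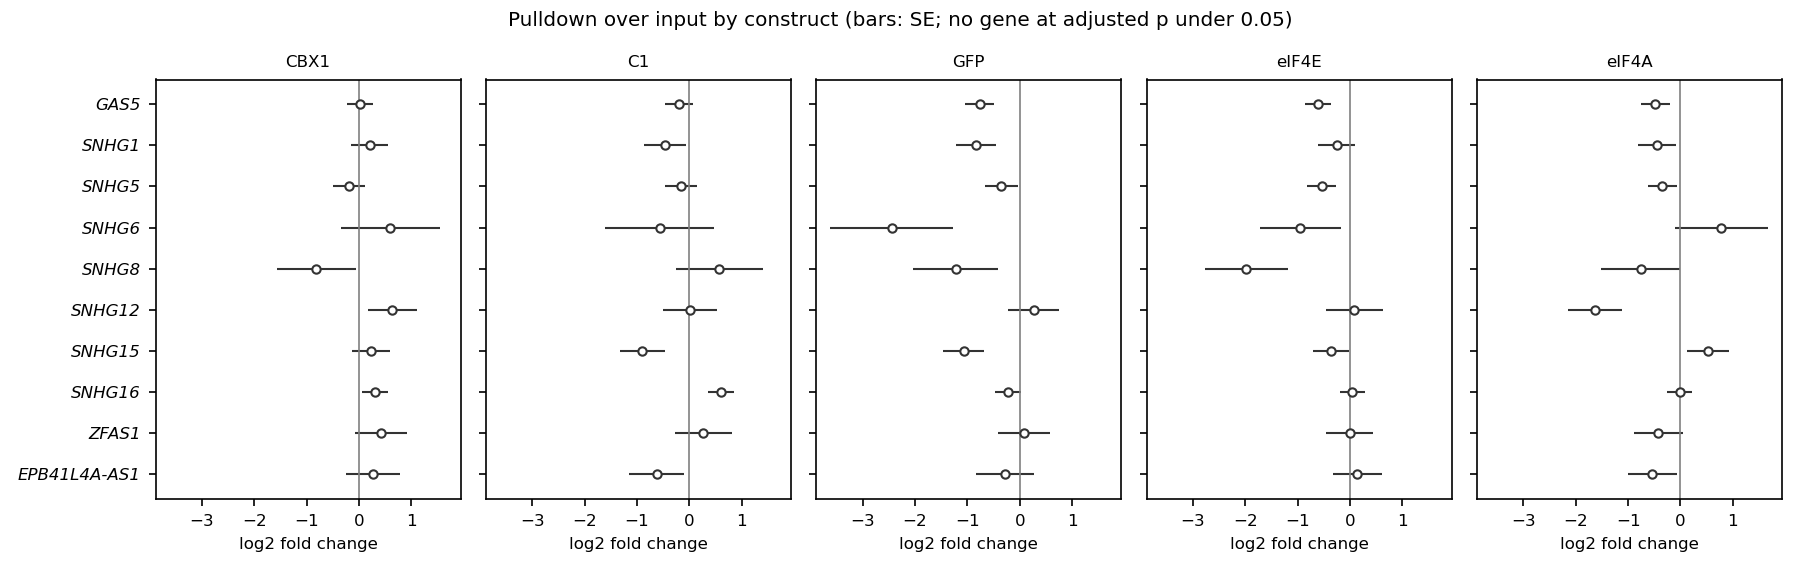
Log2 pulldown over input (x axis) for the 10 genes (y axis) in each construct, with SE bars from edgeR; no point passed adjusted p under 0.05. SNHG12 sits at -1.62 in APEX-eIF4A and 0.64 in APEX-CBX1, and SNHG6 and SNHG8 have the widest bars.

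Pulldown over input set against that of APEX-GFP, which shares its libraries among all 4 such comparisons, gave 0 called genes of 10 in each with edgeR and 0 with DESeq2. The share of all IDs called was 0.161% for APEX-CBX1 and 0% for C1-APEX, APEX-eIF4E and APEX-eIF4A, and the counts at an unadjusted p under 0.05 were 2, 1, 0 and 3, beside 7.34%, 8.41%, 3.8% and 3.31% of all IDs. In APEX-CBX1 all 10 estimates were positive, against 51.4% of all IDs, with a median of 0.54 against 0.02 over all IDs. In C1-APEX 8 of 10 were positive, in APEX-eIF4A 7 and in APEX-eIF4E 6, with medians of 0.28, 0.25 and 0.21. Of all IDs, 49.6%, 52.8% and 52.2% were positive, in that order. All 4 comparisons share the APEX-GFP libraries, where pulldown over input had a median of -0.56. The 2 smallest p-values in APEX-CBX1 were those of SNHG15 and GAS5. SNHG15 stood at 11.95 and 15.2 CPM in APEX-CBX1 inputs and 14.8 and 17.2 in pulldowns, beside the APEX-GFP values above (1.31 ± 0.53 SE, edgeR adjusted p = 0.562). GAS5 stood at 35.8 and 37.0 CPM in inputs and 34.3 and 39.7 in pulldowns (0.79 ± 0.37 SE, edgeR adjusted p = 0.663).

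In APEX-eIF4A against APEX-GFP, SNHG15 and SNHG12 had estimates of opposite sign and neither was called. SNHG15 stood at 6.87 and 9.05 CPM in APEX-eIF4A inputs and 11.4 and 12.3 in pulldowns (1.60 ± 0.56 SE, edgeR adjusted p = 1). SNHG12 stood at 9.08 and 5.95 CPM in APEX-GFP inputs and 11.2 and 6.99 in pulldowns, beside the APEX-eIF4A values above (-1.89 ± 0.71 SE, edgeR adjusted p = 1). SNHG6 had the largest estimate (3.23 ± 1.48 SE), from 0 and 2 counts in APEX-GFP pulldowns.

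In C1-APEX against APEX-GFP the smallest p-values were those of SNHG16 (0.83 ± 0.36 SE, edgeR adjusted p = 0.514), with APEX-GFP at 39.9 and 33.9 CPM in inputs and 33.1 and 30.1 in pulldowns, and SNHG8 (1.79 ± 1.16 SE, adjusted p = 0.718). SNHG8 stood at 3.69 and 3.19 CPM in C1-APEX inputs, 7.14 and 3.43 in its pulldowns, 7.72 and 3.21 in APEX-GFP inputs and 2.92 and 1.75 in its pulldowns. SNHG16 was called without the second C1-APEX pulldown, and also when the inputs were left out of the comparison, beside 7.09% and 6.7% of all IDs. In APEX-eIF4E against APEX-GFP the smallest were SNHG15 (0.70 ± 0.52 SE) and SNHG1 (0.58 ± 0.52 SE), both at an edgeR adjusted p of 1. SNHG15 stood at 19.5 and 26.6 CPM in APEX-eIF4E inputs and 12.1 and 23.4 in its pulldowns. SNHG1, the host of 8 C/D box snoRNAs, stood at 33.0 and 27.3 CPM in those inputs and 28.7 and 21.7 in pulldowns, and in APEX-GFP at 21.3 and 22.0 in inputs and 5.35 and 18.3 in pulldowns. When inputs were left out, GAS5, SNHG15 and SNHG16 were called higher in APEX-eIF4E pulldowns, 3 of 10 against 5.46% of all IDs in either direction. The inputs of this construct also held more of all 3 than APEX-GFP inputs. GAS5 and SNHG16 were called there, and SNHG15 was 1.62-fold higher without a call (0.70 ± 0.28 SE, edgeR adjusted p = 0.0896).

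Pulldowns compared with one another across the 5 constructs, added after the data were seen, gave 0 of 10 called by edgeR and by DESeq2, and 4 at an unadjusted p under 0.05. Of all IDs, 3.08% were called and 20.2% passed the unadjusted threshold. The 2 smallest p-values were those of SNHG15 (edgeR adjusted p = 0.16) and SNHG16 (adjusted p = 0.181), whose pulldown values, on the scale of all 20 libraries, are given above for all 5 constructs except SNHG16 in APEX-eIF4E, at 61.8 and 55.6 CPM, and in APEX-eIF4A, at 45.5 and 46.5 CPM. The calls changed when either C1-APEX pulldown was left out, with a larger share of all IDs called each time. Those 2 libraries were the least alike of the naive table. The calls also changed with both kept. The fit over all 20 naive libraries called GAS5, SNHG12, SNHG15 and SNHG16, 4 of 10 beside 18.6% of all IDs. With library size in place of TMM, SNHG15 was called, beside 6.58% of all IDs.

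Heat shock at T20 left none of the 10 genes called in total RNA against T0, although SNHG12, ZFAS1 and SNHG6 had the highest estimates. All 10 were tested among 20438 IDs over the 8 stress inputs, of which 0.817% were called. DESeq2 also called 0, and 4 genes had an unadjusted p under 0.05 in edgeR, as did 14.3% of all IDs. Over the 10 the median was 0.24 on the log2 scale, against -0.02 over all IDs. Levels of the stress libraries are CPM scaled with TMM within the inputs or within the pulldowns.

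SNHG12 stood at 34.8 and 80.6 CPM in T0 inputs and at 127.9 and 140.8 in T20 inputs, with the single T4 input at 63.9 CPM. The T20 libraries lay above both T0 libraries, and those of T0 differed by more than those of T20. The difference was 1.23 ± 0.37 SE, 2.35-fold, and was not called (edgeR adjusted p = 0.156). ZFAS1, host of 3 SNORD12 snoRNAs, stood at 29.6 and 22.8 CPM at T0, 41.9 at T4 and 46.6 and 66.6 at T20, again without overlap (1.11 ± 0.36 SE, edgeR adjusted p = 0.195). SNHG6 stood at 5.09 and 1.94 CPM at T0, 8.51 at T4 and 9.37 and 10.3 at T20 (1.41 ± 0.54 SE, edgeR adjusted p = 0.264), from only 7 to 67 counts.

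SNHG16 had the lowest estimate, at 314.1 and 240.0 CPM in T0 inputs, 308.9 at T4 and 179.8 and 179.0 at T20 (-0.63 ± 0.28 SE, edgeR adjusted p = 0.335). Both T20 inputs lay above both T0 inputs for GAS5, SNHG6, SNHG12 and ZFAS1, 4 of 10 against 25.9% of all IDs, and below them for SNHG16, 1 of 10 against 19.6%. SNHG5, SNHG8 and SNHG15 had estimates between -0.08 and 0.01 with SEs of 0.30 to 0.34. SNHG6 was called without the first T0 input and SNHG12 without the second. SNHG12 was also called with no filter on low counts, so 1 of 10 was called under each of these 3 settings, beside 4.9%, 1.93% and 1.64% of all IDs. A replicate block with the T20 numbers crossed was picked after seeing these same values. It called 0 of 10 with edgeR over the 8 inputs. The hippuristanol numbers were not crossed, although their replicate differences ran with those of T20 and against those of T0. The 8-input block therefore set T20 against hippuristanol, and its 0 decides nothing. Over the 4 T0 and T20 inputs alone, SNHG6, SNHG12 and ZFAS1 were called higher, 3 of 10 against 12.3% of all IDs in either direction. The crossing was chosen from the replicate differences of these same 4 libraries, which the block then takes up. This count therefore decides nothing either.

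**Figure D4:**
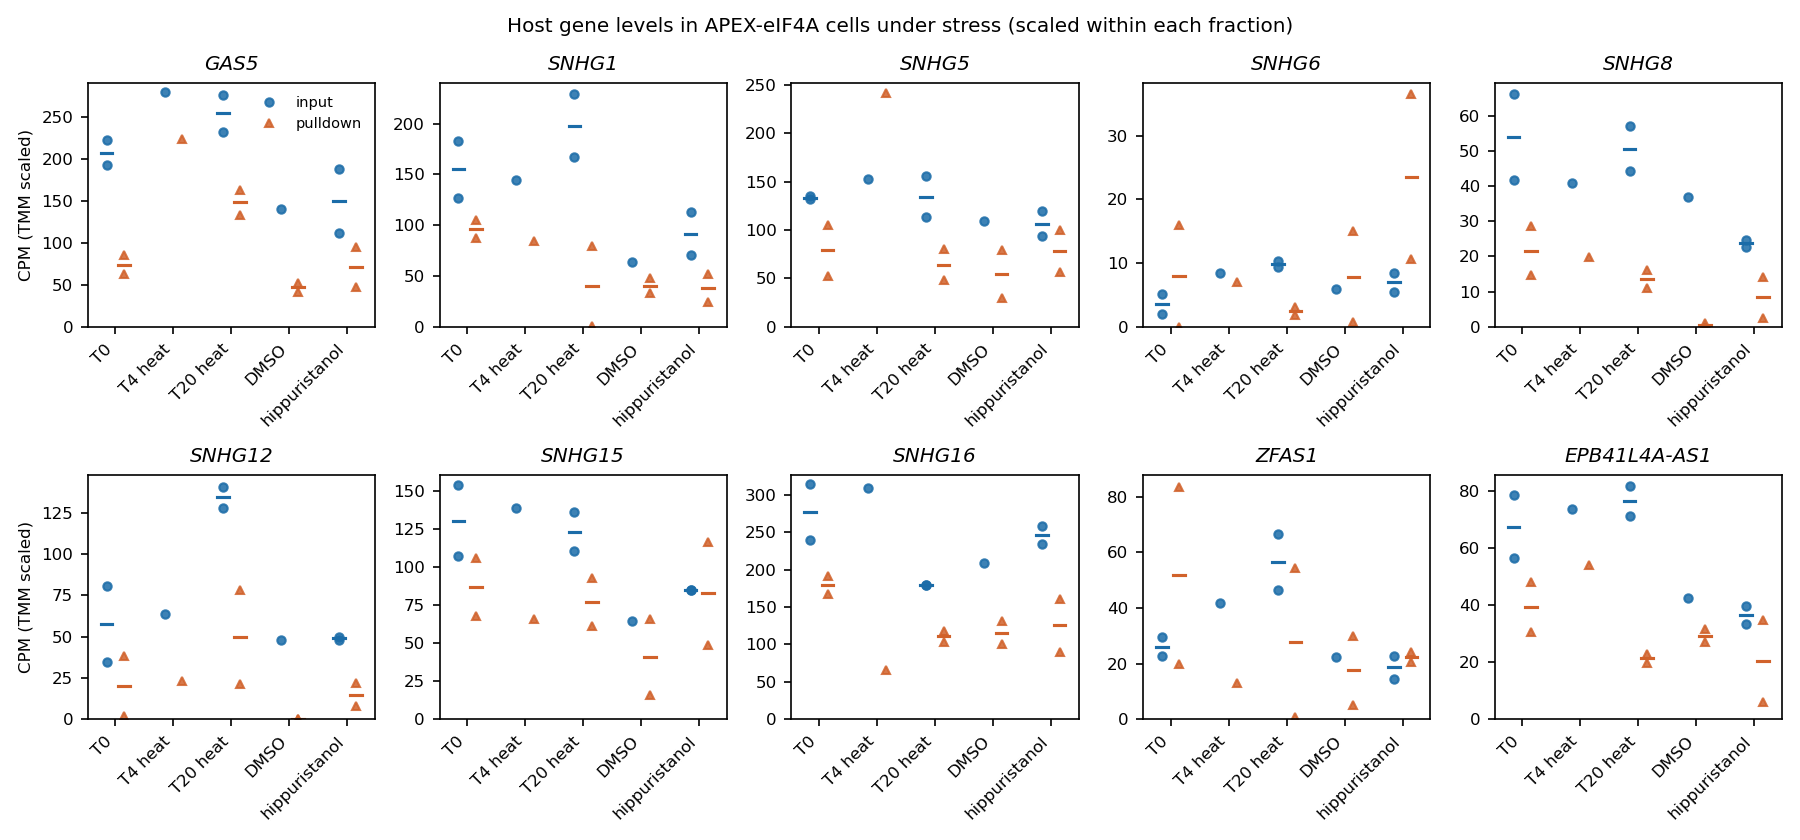
CPM (y axis, TMM scaled within inputs and within pulldowns, so the 2 are not on 1 scale) of each gene in APEX-eIF4A cells by condition (x axis); circles are inputs, triangles pulldowns, each point 1 library, and bars are means where there are 2. SNHG12 inputs at T20 (127.9 and 140.8) lie above all other SNHG12 inputs, and most pulldown pairs are wide apart.

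Pulldowns of APEX-eIF4A cells at T20 and T0 gave 0 called genes of 10 with edgeR and with DESeq2, 0 at an unadjusted p under 0.05, and 0.58% of 14839 IDs called. GAS5 had the smallest p-value, at 62.4 and 85.6 CPM at T0 and 133.1 and 163.6 at T20 (1.01 ± 0.65 SE, edgeR adjusted p = 0.819), with T20 above T0 in both libraries, the only one of the 10 genes, against 19.8% of all IDs. SNHG1 was next, at 105.0 and 87.8 CPM at T0 and 0.958 and 79.8 at T20, where 1 library held a single count (-1.25 ± 0.90 SE, edgeR adjusted p = 0.842). Both T20 pulldowns lay below both T0 pulldowns for SNHG1, SNHG16 and EPB41L4A-AS1, 3 of 10 against 14.5% of all IDs. The median of the 10 was -0.67 against 0.09 over all IDs, and it was 0.23 without the first T0 pulldown.

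Set against the inputs, the T20 over T0 difference of the pulldown gave 0 of 10 called by edgeR and DESeq2, 0 at an unadjusted p under 0.05 and 0% of 16678 IDs called by edgeR. SNHG6 (-3.24 ± 2.24 SE, edgeR adjusted p = 0.769) and SNHG1 (-1.67 ± 1.17 SE, adjusted p = 0.77) had the smallest p-values. SNHG6 had 12 and 0 counts in T0 pulldowns and 2 and 4 at T20, beside the input values above. SNHG1 inputs stood at 183.0 and 127.2 CPM at T0 and 167.1 and 229.2 at T20, with overlap. The median was -0.51, and 0.12 without the first T0 pulldown.

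Hippuristanol, the eIF4A inhibitor, was set against DMSO in inputs with a single DMSO library, which is assumed to vary like the other groups. Of the 10 genes 0 were called by edgeR and 0 by DESeq2, 0 had an unadjusted p under 0.05, and 0% of 20438 IDs were called by edgeR. The 2 smallest p-values were those of SNHG8, at 36.8 CPM in DMSO and 24.7 and 22.7 with hippuristanol (-0.63 ± 0.41 SE, edgeR adjusted p = 1), and SNHG1, at 63.5 in DMSO and 70.8 and 112.6 with hippuristanol (0.53 ± 0.41 SE, adjusted p = 1). SNHG8 lay lower in both hippuristanol inputs, as did 2 of the 10 genes and 27.6% of all IDs, and SNHG1 lay higher in both, as did 4 of the 10 and 29.7% of all IDs. The median of the 10 was 0.07 against 0.05 over all IDs, and it turned to -0.48 with the T0 inputs in place of the DMSO input and to -0.12 without the second hippuristanol input.

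Hippuristanol and DMSO pulldowns gave 0 of 10 called by edgeR and by DESeq2, 1 at an unadjusted p under 0.05 (4.52% of all IDs) and 0.0607% of 14839 IDs called. That gene was SNHG12, with 0 and 0 counts in the DMSO pulldowns and 18 and 9 with hippuristanol (edgeR adjusted p = 0.886). Its hippuristanol mean of 14.96 CPM was 11.6-fold the 1.29 CPM that 3 counts over both DMSO pulldowns would give. That floor allows for counting error only and is no bound on the difference, since the T0 pulldowns held 29 and 1 counts of SNHG12. SNHG8 was next, with 0 and 1 counts in DMSO and 2 and 16 with hippuristanol (edgeR adjusted p = 1). The median of the 10 was 0.55, both as fitted and with SNHG12 set at 11.6-fold, against 0.00 over all IDs.

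**Figure D5:**
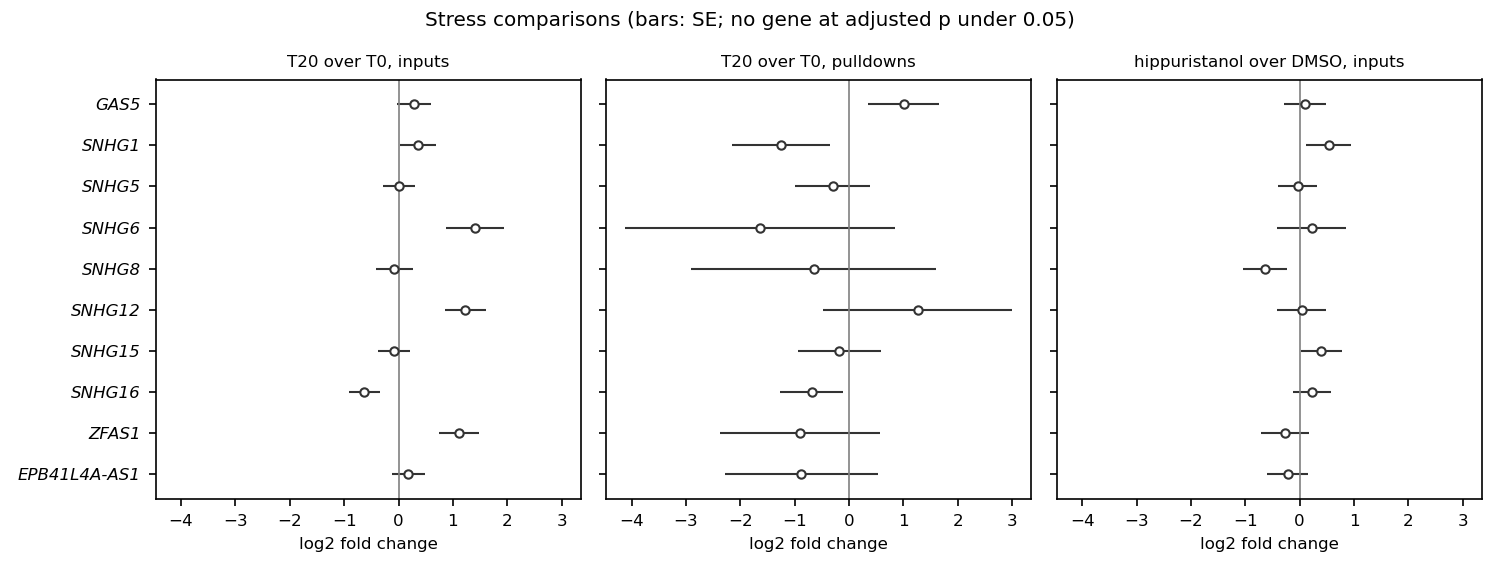
Log2 difference (x axis) for the 10 genes (y axis) at T20 over T0 in inputs and in pulldowns and for hippuristanol over DMSO in inputs, with SE bars from edgeR; no point passed adjusted p under 0.05. SNHG12, ZFAS1 and SNHG6 sit at 1.23, 1.11 and 1.41 in T20 inputs, and every gene has a wider bar in pulldowns than in inputs.

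In unstressed APEX-eIF4A cells of the stress table, pulldown over input at T0 gave 0 of 10 called by edgeR and by DESeq2, 1 at an unadjusted p under 0.05 (10.7% of all IDs) and 0.36% of 16678 IDs called. GAS5 had the smallest p-value, at 47 and 39 counts in the T0 pulldowns and 1572 and 697 in the inputs (-1.14 ± 0.45 SE, edgeR adjusted p = 0.407). In the naive table the same construct gave GAS5 the -0.48 ± 0.27 SE above, also not called. ZFAS1 came second, with 63 and 9 counts in pulldowns and 209 and 82 in inputs (1.36 ± 1.20 SE, edgeR adjusted p = 0.741). Across the 10 genes the median was -0.36 against -0.55 over all IDs.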

How the data were processed

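The deposited values are raw counts, whole numbers per Ensembl gene ID with its version. Reads were trimmed, aligned and counted by the authors, and the submitters' processing notes name cutadapt, HISAT2, featureCounts and GRCh38; the library kit keeps strand, per the labels' protocols. The sources used here do not give versions, the strand setting or the handling of multiply matching reads. edgeR 4.0.16 (R 4.3.3) was run on each table by itself, with filterByExpr on groups, TMM factors, estimateDisp and glmQLFit (robust), and the quasi-likelihood F test was 2-sided, with Benjamini-Hochberg adjustment over all IDs tested. Comparisons within a fraction used that fraction's libraries, and pulldown over input used the whole table. DESeq2 1.42.0 was an alternative. In each of 21 comparisons, genes that were called, or otherwise the 2 with the smallest p, are given in full. The members and lists were chosen with earlier results of these data known. Lists of other pathway genes and cell markers were not used, since 0 of 59778 symbols in the gene table carry an Ensembl ID. The hippuristanol inputs took their group from the title, while their stress field names heat shock, and 1 column name shared by 2 samples was assigned by table. The edgeR steps were tested on simulated counts. Replicate numbers were not taken to pair libraries.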

Additional observations from a re-analysis of the deposited data

Results flagged for a closer look

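The T4 heat shock libraries, 1 input and 1 pulldown, entered no comparison of groups. In the T4 pulldown GAS5 stood at 224.2 CPM, 2.62-fold the higher of the 2 T0 pulldowns (62.4 and 85.6 CPM), from 191 counts. SNHG5 stood at 241.8 CPM, 2.30-fold the higher T0 pulldown (105.0 and 52.7 CPM), from 206 counts. These 2 genes were singled out because their T4 pulldown was at least 2-fold above every T0 pulldown, which no other gene of the 10 reached and which held for 14.7% of all 14839 IDs. In the same library 7 of the 10 genes lay below the higher T0 pulldown. That rule was not counted over all IDs, so the 7 cannot be read as particular to these genes. SNHG16 stood at 65.7 CPM against 191.3 and 166.9 at T0, at least 2-fold below both, as did 15.1% of all IDs, and ZFAS1 stood at 12.9 CPM against 83.7 and 19.8. In the T4 input the same genes stood at 1.26-fold (GAS5) and 1.13-fold (SNHG5) the higher T0 input. At T20 the GAS5 pulldowns were at 133.1 and 163.6 CPM and the SNHG5 pulldowns at 47.9 and 80.6 CPM. With 1 library there is no replicate check of these values.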

How the results depend on the processing

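The count of called genes moved under these settings. With library size in place of TMM it was 2 for inputs across constructs (33.0% of all IDs), 1 for APEX-eIF4E inputs over APEX-GFP (24.8%) and 1 for pulldowns across constructs (6.58%). For pulldown over input it was 1 in APEX-eIF4E (36.4%) and 2 in APEX-eIF4A (31.7%). DESeq2 gave 1 for inputs across constructs (1.24% of all 60483 IDs without a filter). Fitting all 20 naive libraries gave 0 for inputs across constructs (3.64%) and 4 for pulldowns across constructs (18.6%). It gave 1 for APEX-eIF4E inputs (2.78%) and 0 for APEX-eIF4A inputs (0.579%). Only the 4 APEX-eIF4A libraries gave 1 for its pulldown over input (6.58%). Without input correction the count was 1 for C1-APEX (6.7%) and 3 for APEX-eIF4E (5.46%) against APEX-GFP. No filter gave 1 for T20 over T0 inputs (1.64%). Leaving out 1 library at a time gave 0 to 1 for pulldown over input in C1-APEX, APEX-GFP and APEX-eIF4E, for C1-APEX against APEX-GFP, for T20 over T0 inputs and for APEX-eIF4A inputs, 1 to 4 for inputs across constructs, 0 to 5 for pulldowns across constructs and 0 to 3 for APEX-eIF4E inputs. For the last 3 of these ranges, the fit furthest from the main count also moved the share of all IDs called, in the same direction. Those fits leave 1 library in a group, so their counts cannot be read as particular to these genes. The replicate block was not run for hippuristanol over DMSO inputs and changed no count of called genes elsewhere. It gave 4 for inputs across constructs, 3 for APEX-eIF4E and 1 for APEX-eIF4A inputs over APEX-GFP. Where it was run and the unblocked fit gave 0, it gave 0. Deviations of T0 and T20 inputs that share a number correlated at -0.70 over 4369 IDs. Those of hippuristanol inputs correlated at -0.79 with T0 and 0.64 with T20. The replicate block with only the T20 numbers crossed was picked after seeing these values. Over 8 inputs, where it set T20 against hippuristanol, it called 0 of 10 (1.67%). Over the 4 libraries it called 3 of 10 (SNHG6, SNHG12, ZFAS1), where 12.3% of IDs were called. Since the crossing was chosen from these same libraries, neither count decides anything. No estimate reversed among the called genes. Counts of 2 to 97 per naive input, and 0 to 207 per stress pulldown, limit what could be detected.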
